A study of Mus musculus with 18 samples.

Results

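The 40 genes described here are macrophage lineage genes that were measured in cultures of mouse embryonic fibroblasts (MEFs), primary cells grown from minced mid-gestation embryos after removal of the head and viscera. They were taken by name from a fixed list and are 40 of the 55401 gene identifiers in the count table. All 40 had an identifier, and the gene listed as Emr1 appears under its present name Adgre1. RNA-seq counts came from 18 libraries in 6 groups of 3. One set, the S6K1 series, compared wild-type (WT) cells given an empty retroviral vector (EV), WT cells given a vector for constitutively active RAS, and RAS-carrying cells that lack S6K1 (KO). The other set, the S6K1/S6K2 series, had the same WT EV and WT RAS arms beside RAS-carrying cells that lack both kinases (DKO). S6K1 and S6K2, encoded by Rps6kb1 and Rps6kb2, are the ribosomal S6 kinases downstream of mTOR. EV and RAS libraries that share a series and a replicate number come from the same WT line, so there were 6 WT lines. S6K1 KO and WT embryos were littermates per the methods of the study, whereas the DKO embryos came from a cross of S6K1+/-;S6K2-/- parents and their WT controls from other mothers. The deletions were whole-body. The methods name pBABEpuro and MSCV-neo backbones among the vectors for EV and RAS, so whether the EV and RAS arms differ in backbone is not clear. The part of such a difference in RAS against EV was not tested. The effect of S6K loss was measured only in cells that carried RAS, since KO and DKO cells with EV were not analysed here.

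Macrophages are phagocytes that populate nearly every tissue, including those of the embryo. They depend on signals through the receptor Csf1r and on the transcription factor PU.1, encoded by Spi1. They are known for engulfing dead cells and microbes, for sensing microbial products and for secreting complement and cytokines. The members fall into 7 roles. These are secreted and lysosomal proteins, Fc receptors with their signalling adaptors, scavenger and lectin receptors, pattern recognition receptors, lineage surface proteins, actin and oxidase components, and the antigen presentation chaperone Cd74.

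Levels are given as CPM, the count scaled to the size of its library after TMM normalization over the 18 libraries, and the 3 values of a group are always in the order of replicates 1, 2 and 3. CPM is not divided by gene length, so levels are compared between libraries and never between genes. Total counts per library were 8319445 to 14402442, and 3 counts, the upper limit for a gene with a count of 0, amounted to 0.2083 to 0.3606 CPM. This level is called the floor, and it covers counting error only. A second measure, the macrophage index, was the log2 of the summed CPM of 20 other macrophage genes, none of them a member, among them Csf1r, Spi1 and Itgb2. Fibroblast identity was checked with 15 markers such as collagens and Pdgfra. Their summed level was 31619 to 69199 CPM, a 2.19-fold range, and all 15 were above the floor in every library. The sum was 55543 to 69199 CPM in the EV libraries and 31619 to 47981 CPM in the RAS libraries, with 1 marker higher and 6 lower by an adjusted p under 0.05 in RAS against EV in each series. Its part in the RAS results below was not tested. Rps6kb1 was at 23.8 to 37.5 CPM in KO RAS and 64 to 75 CPM in the matching WT RAS. For DKO RAS it was 34.2 to 39.2 CPM, against 73.6 to 82.8 CPM in the matching WT RAS. Rps6kb2 stood at 23.8 to 28.5 CPM in S6K1/S6K2 WT RAS and 2.65 to 3 CPM in DKO RAS. Counts cover a whole gene, and the deleted part was not read separately.

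Promoters are shown first, for members that stand for the patterns described below. Of the 40 members, 29 had a promoter in the RefSeq table used (GRCm38.p6), in 35 windows of the 250 bases before a transcription start. The letters GAGGAA, the core of the site that PU.1 binds, were searched on both strands. They were in 18 of the 35 windows (51.4%), belonging to 16 of the 29 members, against 23.3% of all 32851 promoter windows. TGANTCA, the form of site bound by AP-1, was in 14.3% of the member windows and 6.75% of all windows. TATAAA was in 8.57% and 12.4%. The 5 promoters shown here stand for the patterns below: Ctss, which scaled with the index, C1qb, whose slope on the index was above 1, Cd53 and Pf4, which were higher with RAS, and Cx3cr1, which was lower. The window of C1qb lies at chr4:136886201-136886450 (minus strand) and that of Ctss at chr3:95526536-95526785 (plus strand). That of Cd53 lies at chr3:106790150-106790399 (minus strand), that of Pf4 at chr5:90772185-90772434 (plus strand) and that of Cx3cr1 at chr9:120068297-120068546 (minus strand). Each is written 5′ to 3′ along its gene, with GAGGAA or its reverse complement in capitals.
C1qb: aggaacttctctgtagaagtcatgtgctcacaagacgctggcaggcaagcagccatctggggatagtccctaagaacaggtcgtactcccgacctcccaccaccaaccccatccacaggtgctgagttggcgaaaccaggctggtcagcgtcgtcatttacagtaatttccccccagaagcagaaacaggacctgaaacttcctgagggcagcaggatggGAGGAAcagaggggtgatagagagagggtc
Ctss: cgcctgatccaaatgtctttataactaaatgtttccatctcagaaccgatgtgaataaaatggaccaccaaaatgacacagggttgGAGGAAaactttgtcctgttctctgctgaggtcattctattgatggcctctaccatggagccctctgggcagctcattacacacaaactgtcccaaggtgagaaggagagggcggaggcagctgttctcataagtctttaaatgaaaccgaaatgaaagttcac
Cd53: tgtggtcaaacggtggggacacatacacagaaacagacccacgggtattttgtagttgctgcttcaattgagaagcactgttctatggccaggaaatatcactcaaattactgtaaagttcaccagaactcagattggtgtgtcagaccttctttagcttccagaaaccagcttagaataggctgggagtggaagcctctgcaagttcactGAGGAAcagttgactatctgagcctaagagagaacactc
Pf4: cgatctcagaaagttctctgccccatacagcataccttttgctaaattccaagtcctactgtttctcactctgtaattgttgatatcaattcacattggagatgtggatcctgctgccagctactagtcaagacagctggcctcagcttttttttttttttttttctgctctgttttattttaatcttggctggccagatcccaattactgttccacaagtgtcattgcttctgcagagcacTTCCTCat
Cx3cr1: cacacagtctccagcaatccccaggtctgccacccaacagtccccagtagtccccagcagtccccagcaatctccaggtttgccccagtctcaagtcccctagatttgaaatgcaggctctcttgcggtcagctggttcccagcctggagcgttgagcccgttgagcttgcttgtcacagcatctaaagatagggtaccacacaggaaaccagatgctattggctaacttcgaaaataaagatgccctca

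The motif stood once in the window of C1qb, Ctss, Cd53 and Pf4 and was not in that of Cx3cr1, which says only that these letters are not in this window. It was in 7 of 11 members with a window among those changed with RAS at an equal index, as defined below, and in 5 of 10 among those that scaled with the index.

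The summed level of the 40 members ranged from 122 to 5827 CPM over the 18 libraries, a 47.8-fold range, which was 0.0122% to 0.577% of all counts. The index ranged over 48.5-fold, from 15.2 to 737 CPM. In S6K1 WT EV the summed level of the members was 5126, 4003 and 1071 CPM. S6K1 WT RAS libraries held 5827, 5301 and 1154 CPM, and S6K1 KO RAS libraries held 1338, 1053 and 406 CPM. Replicates 1 and 2 of the S6K1 WT cultures were therefore far above replicate 3 of the same genotype, with either vector. The WT EV libraries of the S6K1/S6K2 series summed to 2195, 262 and 338 CPM, its WT RAS libraries to 1499, 274 and 403 CPM, and the DKO RAS libraries to 399, 122 and 152 CPM. There the line of replicate 1 was the one that stood apart.

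**Figure D1:**
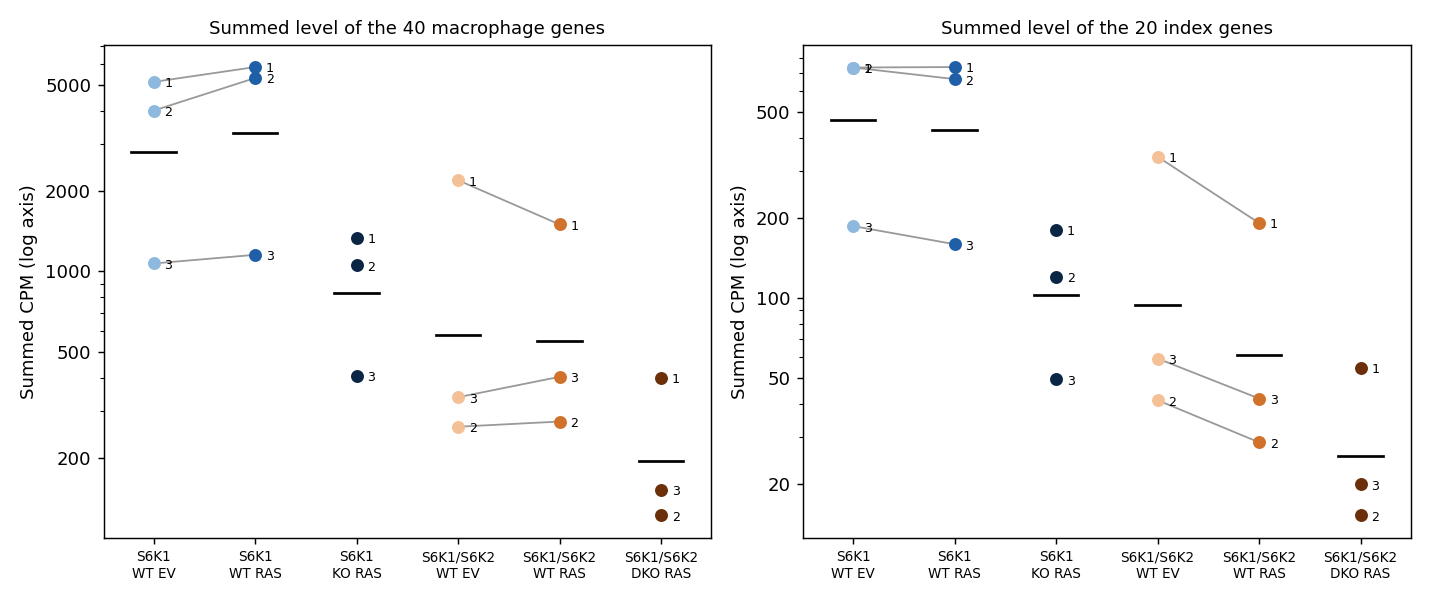
Summed CPM (log axis) of the 40 macrophage genes (left) and of the 20 index genes (right) in each library, by group. Numbers are replicates, black bars are geometric means of 3 libraries and grey lines join EV and RAS of the same WT line. The members range from 122 CPM in a DKO RAS library to 5827 CPM in a S6K1 WT RAS library, and WT lines of 1 genotype lie far apart.

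The spread between WT lines exceeded the change with RAS inside a line. Within the 6 lines, the summed level was on average 0.08 higher with RAS on the log2 scale (SD 0.33), with p = 0.594 in an exact two-sided sign-flip permutation test over the 6 lines, whose smallest possible p is 0.03125. The index was 0.37 lower on average (SD 0.30), with p = 0.0625 in the same exact test, and it was lower in 5 of 6 lines. Against WT RAS, the summed level in KO RAS differed by -1.99 on the log2 scale (9.7 ± 0.91 against 11.68 ± 1.31, SD, n = 3). The exact two-sided permutation p was 0.2, and 3 libraries against 3 cannot go below 0.1. DKO RAS differed from its WT RAS by -1.5 (7.6 ± 0.91 against 9.1 ± 1.29, SD, n = 3), also with an exact permutation p of 0.2. In bulk RNA, fewer macrophages and less macrophage RNA per cell cannot be told apart.

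Most lists of markers of other blood cells did not accompany the members. All 11 markers of T, B and NK cells were at or below the floor in every library. Of 9 neutrophil markers, 7 were never above the floor, among them Mpo and Elane, and the list summed to at most 0.258 CPM in the EV libraries. The other two, Ly6g and S100a8, named after their values were seen, were above the floor in 12 libraries each, and the neutrophil list summed to 6.12 to 19.3 CPM in the RAS libraries, where it did not follow the members: the DKO RAS group held the highest value. Of 7 dendritic cell markers, 4 never passed the floor, and only Zbtb46 passed it in every library. Of 6 class II genes, Ciita and H2-Aa were never above the floor, H2-DMa was above it in all 18 libraries, H2-DMb1 in 17, H2-Ab1 in 15 and H2-Eb1 in 14, and the list summed to 6.3 to 13.2 CPM. Cd74, the class II invariant chain, reached 33 counts in 1 library and at most 10 in the others. The mast cell list summed to at most 2.76 CPM. Of 7 osteoclast markers, 4 were above the floor in every library. That list summed to 36.5 to 201 CPM, with its highest group mean in S6K1 WT EV (151 CPM). A list of 12 lipid and phagosome genes that other cells also use did not follow the members. Its mean was 15904, 26145 and 29012 CPM in S6K1 WT EV, WT RAS and KO RAS, and 11198, 33089 and 35248 CPM in S6K1/S6K2 WT EV, WT RAS and DKO RAS. Cd163, a haemoglobin scavenger receptor, had 1 count in all libraries together. Cd74 and Cd163 were therefore not tested.

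To separate genes that scale together from those that RAS changes on its own, each gene was fitted over the 18 libraries with its group and the index as terms (edgeR, quasi-likelihood test with Benjamini-Hochberg adjustment over all 14483 genes tested, called at an adjusted p under 0.05). The slope on the index is the log2 change of the gene for each log2 unit of the index inside a group, so a slope of 1 means strict proportion. All 38 members tested had a positive slope that passed the test, whereas 11.4% of all genes tested were called with a positive slope and 21.6% in either direction. The median slope was 1.06, and slopes ran from 0.47 for Tlr2 to 1.31 for Ms4a6c. The same count of 38 was called without each of the 18 libraries in turn, and 35 of 39 members tested were called without the 4 libraries of lines WT1 and WT2 of the S6K1 series. The share of all genes called was not recorded for the fits that left out libraries. These fits treat the EV and RAS libraries of a WT line as separate. With the 12 WT libraries alone and the line as a replicate block, no slope was called (edgeR), for the members or among all 14235 genes tested (0%). There 29 slopes were positive and 9 negative, those of the C1q chains included, and 9 of 38 members (23.7%) had an unadjusted p under 0.05 beside 9.54% of all genes. The index moved inside a line only by -0.82 to 0.01 on the log2 scale.

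By a fixed rule, 11 members scaled with the index, with no call for RAS and a 95% interval of the slope that held 1: Mpeg1, Ctss, Aif1, Ptprc, Trem2, Cybb, Lcp1, Coro1a, Tlr7, Tlr13 and Cd84. A further 17 differed between RAS and EV at an equal index, and 10 met neither criterion. Of those 10, 8 had a slope whose interval lay above 1 (C1qa, C1qb, C1qc, Laptm5, Adgre1, Fcer1g, Tyrobp and Ms4a6c) and 2 had one below 1 (Cd68 and Tlr2). An interval that holds 1 does not show a slope of 1, since a wide interval holds it more easily. That of Aif1, with 0 to 55 counts, ran from 0.66 to 1.52. Trem2 met the rule with a slope of 1.15 (0.99 to 1.3), and Adgre1 did not with 1.14 (1.03 to 1.25). All 4 actin and oxidase genes met the rule for scaling: Aif1, an actin-binding protein also known as Iba1, the actin bundler Lcp1, the coronin Coro1a, and Cybb, the catalytic subunit of the phagocyte NADPH oxidase. All 5 scavenger and lectin receptors that were tested differed with RAS at an equal index, where 41.0% of all genes tested were called, and 1 of the 5, Clec7a, lost its call in 11 of 18 fits that left out 1 library. The difference between these roles was not tested.

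The ratio to the index varied least for Ctss, Lcp1 and C1qa. The SD of its log2 was 0.30, 0.33 and 0.40 over the 18 libraries, the smallest of the 15 members with at least 10 counts in every library. This is not the same as a slope of 1, since the interval of the C1qa slope lay above 1. Ctss encodes cathepsin S, a protease of the phagocyte lysosome. Ctss stood at 197, 127 and 42.2 CPM in S6K1 WT EV, 209, 169 and 33.6 CPM in WT RAS and 40.1, 25.9 and 11.4 CPM in KO RAS. For Ctss, the S6K1/S6K2 series gave 103, 11 and 14.3 CPM (WT EV), 46.1, 8.01 and 12.1 CPM (WT RAS) and 12.7, 2.2 and 3.19 CPM (DKO RAS). Its level followed the lines rather than the vector, with replicates 1 and 2 of the S6K1 WT cultures above all other libraries. Lcp1 measured 222, 198 and 60.3 CPM in S6K1 WT EV, 222, 182 and 43.3 CPM in WT RAS and 59.5, 34.1 and 13.6 CPM in KO RAS. For Lcp1, the S6K1/S6K2 series gave 124, 12.6 and 15.7 CPM (WT EV), 52.3, 5.89 and 12.7 CPM (WT RAS) and 15.7, 2.3 and 3.28 CPM (DKO RAS). Lcp1 gave a slope of 1.09 ± 0.05 (SE) and Ctss 1.05 ± 0.05 (SE).

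C1qa, C1qb and C1qc encode the 3 chains of complement C1q, which opsonizes dead cells, and lie together on chromosome 4 (chr4:136895916-136898844, chr4:136880126-136886200 and chr4:136889801-136892936, GRCm38.p6). C1qa stood at 279, 186 and 46.9 CPM in S6K1 WT EV, 334, 237 and 42.3 CPM in WT RAS and 63.4, 29.7 and 12.8 CPM in KO RAS. For C1qa, the S6K1/S6K2 series gave 90.9, 10.6 and 14.7 CPM (WT EV), 65.8, 4.48 and 12.2 CPM (WT RAS) and 12.2, 2.3 and 5.31 CPM (DKO RAS). C1qb was at 289, 181 and 53.6 CPM in S6K1 WT EV, 345, 234 and 45.9 CPM in WT RAS and 67, 31.3 and 14.3 CPM in KO RAS. Both genes were highest in the WT libraries of replicate 1 of that series and lowest there in the KO library of replicate 3. For C1qb, the S6K1/S6K2 series gave 116, 11.8 and 19.7 CPM (WT EV), 71.8, 3.54 and 12.9 CPM (WT RAS) and 17.3, 1.9 and 3.45 CPM (DKO RAS). C1qc measured 255, 157 and 45.2 CPM in S6K1 WT EV, 284, 196 and 37.5 CPM in WT RAS and 57.7, 30.6 and 11.2 CPM in KO RAS. For C1qc, the S6K1/S6K2 series gave 91.8, 11.2 and 12.6 CPM (WT EV), 61.6, 4.01 and 10.4 CPM (WT RAS) and 11.8, 1.9 and 3.72 CPM (DKO RAS). The slopes were 1.17, 1.21 and 1.18, each with a 95% interval above 1, and each chain was lowest in DKO RAS replicate 2. RAS against EV at an equal index gave 0.22 ± 0.15, 0.07 ± 0.18 and 0.12 ± 0.15 (SE) on the log2 scale, with adjusted p of 0.254, 0.779 and 0.543 in that fit.

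Mpeg1 encodes a pore-forming protein of phagocytes, and Adgre1 the F4/80 antigen by which mouse macrophages are usually recognised. Mpeg1 stood at 470, 445 and 112 CPM in S6K1 WT EV, 382, 371 and 84.7 CPM in WT RAS and 87.9, 69.1 and 25 CPM in KO RAS. For Mpeg1, the S6K1/S6K2 series gave 178, 21.7 and 28.6 CPM (WT EV), 88.1, 13.2 and 22.2 CPM (WT RAS) and 27.9, 3.3 and 4.6 CPM (DKO RAS). The RAS value was below the EV value in all 6 lines, and the EV and RAS groups overlapped in both series. Adgre1 stood at 108, 106 and 23.6 CPM in S6K1 WT EV, 98.4, 82 and 21 CPM in WT RAS and 22.1, 15.6 and 6.59 CPM in KO RAS. For Adgre1, the S6K1/S6K2 series gave 58.3, 3.47 and 5.85 CPM (WT EV), 21.9, 3.06 and 4.2 CPM (WT RAS) and 6, 0.801 and 1.24 CPM (DKO RAS). Adgre1 was likewise lower with RAS in 6 of 6 lines without the index. Relative to the index, the change of Mpeg1 ran from -0.30 to 0.13 over the lines and that of Adgre1 from -0.59 to 0.35, and neither was called for RAS at an equal index (adjusted p = 0.536 and 0.606, edgeR).

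**Figure D2:**
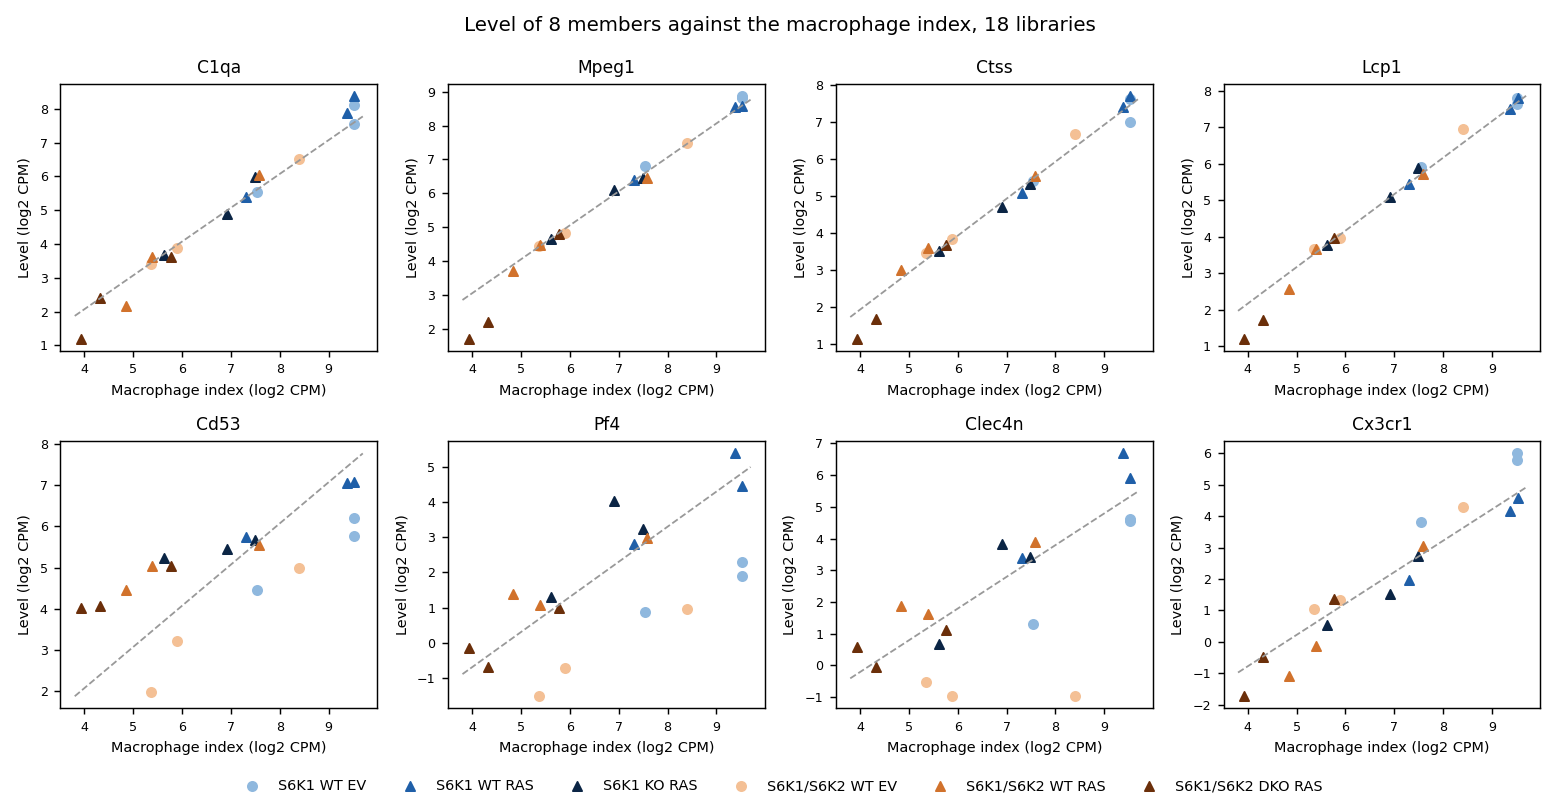
Level of 8 members (log2 CPM) against the macrophage index (log2 CPM) in 18 libraries, circles for EV and triangles for RAS, coloured by group, with a dashed line of slope 1 through the median ratio. In the upper panels (C1qa, Mpeg1, Ctss and Lcp1) EV and RAS libraries lie along the same line, and for Mpeg1, Ctss and Lcp1 the 2 DKO RAS libraries of lowest index lie below it. In the lower panels EV libraries lie below RAS libraries of a like index for Cd53, Pf4 and Clec4n and above them for Cx3cr1.

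Cd68 and Tlr2 changed by less than proportion to the index. Cd68 is a lysosomal membrane glycoprotein and Tlr2 a receptor for bacterial lipoproteins. Cd68 stood at 204, 124 and 41.5 CPM in S6K1 WT EV, 198, 144 and 49.7 CPM in WT RAS and 53.2, 32.3 and 21.2 CPM in KO RAS. For Cd68, the S6K1/S6K2 series gave 137, 15.3 and 18.1 CPM (WT EV), 65.5, 33.5 and 26 CPM (WT RAS) and 23.9, 28.4 and 29.3 CPM (DKO RAS). In DKO RAS the Cd68 values of replicates 2 and 3, where the index was 15.2 and 19.9 CPM, were above that of replicate 1, where it was 54.5 CPM. Tlr2 stood at 27.8, 24.4 and 10.7 CPM in S6K1 WT EV, 25.5, 32.3 and 8.63 CPM in WT RAS and 10.2, 10.3 and 5.15 CPM in KO RAS. For Tlr2, the S6K1/S6K2 series gave 21.8, 10.4 and 8.26 CPM (WT EV), 12.7, 6.25 and 6.57 CPM (WT RAS) and 3.64, 5.1 and 3.89 CPM (DKO RAS). Their slopes were 0.75 (95% interval 0.51 to 0.98) and 0.47 (0.30 to 0.64). Whether other cells of the cultures also express these genes was not tested.

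Among the 17 members that differed with RAS at an equal index, 15 were higher and 2 lower. This share of the members tested, 44.7%, is near the 41.0% of all genes tested that were called in the same fit (20.8% higher and 20.2% lower), so the count is not a result about the members as a group, and what follows concerns single genes. Other fits bear on the count. With the 12 WT libraries alone and the line as a replicate block, 0 members were called, where 1.85% of all genes were called. At an unadjusted p under 0.05 (edgeR) there were 6 of 38 members (15.8%) and 15.4% of all genes, so the members were at the background. With the same libraries and block but the slope fixed at 1, so that each gene is read as its ratio to the index within a line, 20 members were called. They held all 17, each in the same direction. That fit was added after the data were seen. In it, 59.9% of all genes were called and the median of all genes was 0.36 on the log2 scale, against 0.12 for the members. The index was higher with RAS in only 1 of 6 lines, so in the others a gene without change counts as higher relative to it. The share of all genes higher relative to the index in 6 of 6 lines was not counted. Such counts below therefore only describe single members.

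Pf4 and Clec4n had the largest changes. Pf4, at chr5:90772435-90773383 on the plus strand, encodes platelet factor 4, a chemokine that macrophages also make. Pf4 stood at 4.92, 3.71 and 1.84 CPM in S6K1 WT EV, 22.1, 42 and 7.02 CPM in WT RAS and 9.37, 16.3 and 2.45 CPM in KO RAS. For Pf4, the S6K1/S6K2 series gave 1.95, 0.347 and 0.602 CPM (WT EV), 7.89, 2.59 and 2.1 CPM (WT RAS) and 1.97, 0.901 and 0.62 CPM (DKO RAS). Every WT RAS library was above every WT EV library of its series, so the groups did not overlap in either series. In the S6K1/S6K2 series the gap was narrow: WT EV replicate 1 held 1.95 CPM and WT RAS replicate 3 held 2.1 CPM, at 23 counts each. The share of all genes that separate in this way was not counted. In the series fits without the block, Pf4 was higher with RAS on the log2 scale in the S6K1 series by 2.72 ± 0.76 (SE), adjusted p = 0.0454, the only one of 38 members tested that was called, where 13.2% of all genes were called. In the S6K1/S6K2 series it differed by 2.09 ± 0.74 (SE), adjusted p = 0.061 in the same edgeR fit, and with the line as a block by 2.13 ± 0.35 (SE), adjusted p = 0.00475. The call in the S6K1 series held only without WT RAS replicate 3 (3.15) and was lost in the other 5 fits that left out 1 library, down to 2.04 without WT RAS replicate 2. At an equal index the difference was 2.73 ± 0.32 (SE), adjusted p = 7.77e-06 in edgeR, and the ratio to the index was higher in 6 of 6 lines, by 2.14 to 3.63.

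Clec4n encodes dectin-2, a lectin receptor for fungal mannans, and lies at chr6:123229843-123247024. Clec4n stood at 24.4, 23.5 and 2.49 CPM in S6K1 WT EV, 60.3, 103 and 10.5 CPM in WT RAS and 10.8, 14.3 and 1.61 CPM in KO RAS. For Clec4n, the S6K1/S6K2 series gave 0.51, 0.695 and 0.516 CPM (WT EV), 14.9, 3.65 and 3.1 CPM (WT RAS) and 2.16, 1.5 and 0.974 CPM (DKO RAS). Again the WT EV and WT RAS groups of the S6K1/S6K2 series did not overlap (the share of all genes that separate so was not counted). In line 1 of that series the level was 0.51 CPM with EV (6 counts) and 14.9 CPM with RAS. It was the only one of 36 members tested that was called without the block in the S6K1/S6K2 series, at 3.63 ± 0.68 (SE), adjusted p = 0.00463 (edgeR), where 26.3% of all genes were called. In the S6K1 series the difference was 1.75 ± 0.96 (SE), adjusted p = 0.289, and 1.76 ± 0.16 (SE), adjusted p = 2.85e-05 with the line as a block. At an equal index it was 3.07 ± 0.46 (SE), adjusted p = 7.21e-05, and the ratio to the index was higher in 6 of 6 lines, by 1.30 to 5.59. With the slope fixed at 1 and no block, Clec4n and Pf4 were the 2 members called for RAS over the 18 libraries. The share of all genes called in that fit was not recorded.

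The other scavenger and lectin receptors moved less. Mrc1 is the mannose receptor. Mrc1 stood at 111, 126 and 27.5 CPM in S6K1 WT EV, 179, 217 and 42.1 CPM in WT RAS and 21, 22.3 and 8.45 CPM in KO RAS. For Mrc1, the S6K1/S6K2 series gave 53.2, 3.56 and 5.59 CPM (WT EV), 45.4, 6.6 and 8.4 CPM (WT RAS) and 9.63, 1.3 and 2.83 CPM (DKO RAS). Mrc1 was higher with RAS in 5 of 6 lines and higher relative to the index in all 6. In the line where Mrc1 was lower, S6K1/S6K2 WT1, Mrc1 changed by -0.23 and the index by -0.82. At an equal index the difference of Mrc1 was 0.93 ± 0.15 (SE), adjusted p = 0.000145 (edgeR). Msr1, a scavenger receptor for modified lipoproteins, and Siglec1, a sialic acid binding receptor, had positive differences in that fit too. Msr1 stood at 77.2, 70.8 and 20.3 CPM in S6K1 WT EV, 115, 138 and 25.6 CPM in WT RAS and 21.1, 24.8 and 7.1 CPM in KO RAS. For Msr1, the S6K1/S6K2 series gave 22.2, 4.52 and 6.97 CPM (WT EV), 30.4, 3.54 and 6.3 CPM (WT RAS) and 6.49, 0.901 and 1.86 CPM (DKO RAS). Siglec1 stood at 18.7, 56 and 5.71 CPM in S6K1 WT EV, 36.4, 80.5 and 13.5 CPM in WT RAS and 6.62, 13.9 and 3.55 CPM in KO RAS. Siglec1 was highest in the WT2 line of the S6K1 series with either vector. For Siglec1, the S6K1/S6K2 series gave 1.53, 0.521 and 2.06 CPM (WT EV), 10.1, 1.77 and 2.37 CPM (WT RAS) and 1.28, 0.6 and 0.62 CPM (DKO RAS). At an equal index the log2 difference was 0.71 ± 0.17 (SE), adjusted p = 0.00342 for Msr1, and 1.46 ± 0.44 (SE), adjusted p = 0.0141 for Siglec1. With the 12 WT libraries and the line as a block both turned negative, to -0.18 for Msr1 and -0.15 for Siglec1. Clec7a, the receptor dectin-1 for fungal glucans, had at most 35 counts in any library. Clec7a stood at 1.71, 0.833 and 0.461 CPM in S6K1 WT EV, 2.93, 2.82 and 0.726 CPM in WT RAS and 1.19, 0.998 and 0.338 CPM in KO RAS. For Clec7a, the S6K1/S6K2 series gave 0.934, 0.0869 and 0.344 CPM (WT EV), 0.737, 0.589 and 0.183 CPM (WT RAS) and 0.885, 0.2 and 0.266 CPM (DKO RAS). Its log2 difference at an equal index was 0.94 ± 0.35 (SE), adjusted p = 0.0408, and it was higher relative to the index in 5 of 6 lines. The call of Clec7a was lost in 11 of 18 fits that left out 1 library, with values of 0.69 to 1.25 over the 18 fits. In the S6K1 series these were WT EV replicates 2 and 3, WT RAS replicates 1 and 2, and KO RAS replicates 1 and 3. In the S6K1/S6K2 series they were WT EV replicates 1 and 2, WT RAS replicate 2 (0.69), and DKO RAS replicates 2 and 3. Siglec1 lost its call without S6K1/S6K2 WT EV replicate 1 (1.02) and without S6K1/S6K2 WT RAS replicate 1 (1.38).

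Of the Fc receptors and their adaptors, which bind antibody and start phagocytosis, Fcgr1, Fcgr2b, Fcgr3 and Lyn were higher with RAS at an equal index. The membrane adaptors Fcer1g and Tyrobp were not called, and neither was Trem2, a lipid receptor that signals through Tyrobp. Fcgr2b is the inhibitory receptor of the family. Fcgr2b stood at 31.8, 26.9 and 5.62 CPM in S6K1 WT EV, 67.7, 61.3 and 14.4 CPM in WT RAS and 14.2, 11.4 and 3.38 CPM in KO RAS. For Fcgr2b, the S6K1/S6K2 series gave 7.05, 1.56 and 2.06 CPM (WT EV), 20.6, 2 and 3.84 CPM (WT RAS) and 3.05, 0.7 and 0.797 CPM (DKO RAS). It was higher with RAS in 6 of 6 lines, and the ratio to the index was higher by 0.88 to 2.37. Its equal-index difference was 1.53 ± 0.16 (SE), adjusted p = 1.71e-06. Fcgr3 and Fcgr1 are activating receptors. Fcgr3 stood at 80.9, 52.7 and 17.2 CPM in S6K1 WT EV, 97.5, 83.1 and 18.8 CPM in WT RAS and 23.8, 15.5 and 5.66 CPM in KO RAS. For Fcgr3, the S6K1/S6K2 series gave 29.6, 3.65 and 6.28 CPM (WT EV), 25.6, 3.89 and 6.39 CPM (WT RAS) and 6.78, 0.801 and 1.24 CPM (DKO RAS). The change relative to the index was small and in 1 direction, 0.26 to 0.80 over the 6 lines, with 0.53 ± 0.14 (SE), adjusted p = 0.00736 at an equal index. Fcgr1 stood at 19.6, 17 and 4.33 CPM in S6K1 WT EV, 44.2, 36.2 and 4.36 CPM in WT RAS and 5.79, 4.68 and 1.1 CPM in KO RAS. For Fcgr1, the S6K1/S6K2 series gave 5.86, 0.695 and 1.29 CPM (WT EV), 7.58, 0.471 and 1.37 CPM (WT RAS) and 0.885, 0.1 and 0 CPM (DKO RAS). With either vector the line S6K1 WT3 held about the same level of Fcgr1, and the difference at an equal index was 0.97 ± 0.23 (SE), adjusted p = 0.00287. Fcgr2b and Fcgr3 lie near each other on chromosome 1 and are similar in sequence, so reads may be split between them with some uncertainty.

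Lyn, a SRC family kinase that phosphorylates these receptors and their adaptors, had a slope well below 1. Lyn stood at 46.9, 47 and 17.3 CPM in S6K1 WT EV, 56.3, 59.3 and 23.7 CPM in WT RAS and 25.9, 24.5 and 15.2 CPM in KO RAS. For Lyn, the S6K1/S6K2 series gave 14.2, 5.47 and 7.4 CPM (WT EV), 19.3, 11 and 11 CPM (WT RAS) and 15.5, 9.41 and 8.76 CPM (DKO RAS). The lowest and highest libraries for Lyn were 5.47 and 59.3 CPM, and the RAS value was higher in 6 of 6 lines. Its slope on the index was 0.48 ± 0.05 (SE), and its RAS difference at an equal index was 0.68 ± 0.12 (SE), adjusted p = 0.000255.

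Cd53, a tetraspanin of blood cells at chr3:106758861-106790149, was higher with RAS in every line, by 0.54 to 2.48 on the log2 scale. Cd53 stood at 73.7, 54.6 and 22.1 CPM in S6K1 WT EV, 136, 133 and 53.8 CPM in WT RAS and 51.3, 43.8 and 37.6 CPM in KO RAS. For Cd53, the S6K1/S6K2 series gave 31.9, 3.91 and 9.29 CPM (WT EV), 46.5, 22 and 33.1 CPM (WT RAS) and 33.1, 16.3 and 16.8 CPM (DKO RAS). The WT EV and WT RAS groups overlapped in both series through the spread between lines. With the line as a block the difference was 1.11 ± 0.20 (SE), adjusted p = 0.00227 in the S6K1 series and 1.48 ± 0.36 (SE), adjusted p = 0.0199 in the S6K1/S6K2 series (edgeR). In the index fit it was 1.54 ± 0.19 (SE), adjusted p = 1.11e-05, with a slope of 0.60 (95% interval 0.44 to 0.76). The level in DKO RAS replicates 2 and 3 was 16.3 and 16.8 CPM at an index of 15.2 and 19.9 CPM, whereas S6K1/S6K2 WT EV replicate 2 held 3.91 CPM at an index of 41.2 CPM.

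Other lineage surface proteins went both ways. Itgam, the CD11b integrin chain that with Itgb2 forms complement receptor 3, was higher with RAS in 6 of 6 lines. Itgam stood at 21.1, 17.9 and 4.15 CPM in S6K1 WT EV, 45.5, 46.2 and 7.75 CPM in WT RAS and 11, 8.14 and 2.45 CPM in KO RAS. For Itgam, the S6K1/S6K2 series gave 10.1, 0.521 and 0.86 CPM (WT EV), 11.1, 1.3 and 2.01 CPM (WT RAS) and 2.65, 0.1 and 0.531 CPM (DKO RAS). Its difference at an equal index was 1.38 ± 0.17 (SE), adjusted p = 9.77e-06. Cd52, a small glycosylated surface antigen, was higher in the 3 lines of the S6K1 series and in 1 of 3 lines of the other series. Cd52 stood at 27.1, 20.6 and 4.88 CPM in S6K1 WT EV, 42.7, 40 and 7.66 CPM in WT RAS and 8.82, 4.53 and 2.2 CPM in KO RAS. For Cd52, the S6K1/S6K2 series gave 9.77, 1.82 and 1.81 CPM (WT EV), 10.9, 1.06 and 1.1 CPM (WT RAS) and 1.77, 0.1 and 0.531 CPM (DKO RAS). For Cd52 the value at an equal index was 0.67 ± 0.19 (SE), adjusted p = 0.00976, and it turned to -0.53 with the 12 WT libraries and the line as a block. Cx3cr1, the receptor for fractalkine, was the clearest member in the opposite direction. Cx3cr1 stood at 55.1, 64.1 and 14.1 CPM in S6K1 WT EV, 24, 18 and 3.87 CPM in WT RAS and 6.71, 2.84 and 1.44 CPM in KO RAS. For Cx3cr1, the S6K1/S6K2 series gave 19.6, 2.08 and 2.49 CPM (WT EV), 8.31, 0.471 and 0.913 CPM (WT RAS) and 2.56, 0.3 and 0.708 CPM (DKO RAS). Cx3cr1 was lower with RAS in 6 of 6 lines, with log2 changes of -2 to -1.2 without the index and -1.69 to -0.41 relative to it. With the line as a block it was lower by a called difference in the S6K1 series, -1.62 ± 0.20 (SE), adjusted p = 0.000237, and in the S6K1/S6K2 series, -1.46 ± 0.33 (SE), adjusted p = 0.0157. Without the block its difference in the latter series was 0.5 when WT EV replicate 1 was left out. In the index fit its difference was -1.05 ± 0.15 (SE), adjusted p = 5.74e-05. Ms4a7, a tetraspan membrane protein of macrophages, was also lower with RAS in 6 of 6 lines. Ms4a7 stood at 114, 77.1 and 18.7 CPM in S6K1 WT EV, 85.1, 54.5 and 11.6 CPM in WT RAS and 19.3, 10.3 and 3.46 CPM in KO RAS. For Ms4a7, the S6K1/S6K2 series gave 70.7, 5.82 and 7.05 CPM (WT EV), 21.1, 1.77 and 5.57 CPM (WT RAS) and 4.82, 1.4 and 1.33 CPM (DKO RAS). It differed by -0.43 ± 0.15 (SE), adjusted p = 0.0293 at an equal index, and relative to the index it was lower in 5 of 6 lines. Its call was lost in 7 of 18 fits that left out 1 library. These libraries were S6K1 WT EV replicates 1 and 3, S6K1 WT RAS replicate 2, and replicates 1 and 2 of both WT EV and WT RAS in the S6K1/S6K2 series, with the smallest difference, -0.32, without WT RAS replicate 1 of the latter. The call of Cd52 was lost when S6K1/S6K2 WT RAS replicate 1 was left out (0.42) and when S6K1/S6K2 WT EV replicate 1 was (0.49).

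Lyz2, lysozyme, digests bacterial cell walls and is near identical to its neighbour Lyz1, so its reads may be shared between the 2 genes. Lyz2 stood at 1565, 1145 and 294 CPM in S6K1 WT EV, 1939, 1872 and 397 CPM in WT RAS and 464, 420 and 142 CPM in KO RAS. For Lyz2, the S6K1/S6K2 series gave 586, 78.2 and 92.9 CPM (WT EV), 536, 103 and 154 CPM (WT RAS) and 122, 29 and 41.2 CPM (DKO RAS). It was higher with RAS in 5 of 6 lines, and relative to the index in all 6, by 0.30 to 1.23. In the line where Lyz2 was lower, S6K1/S6K2 WT1, Lyz2 changed by -0.13 and the index by -0.82. The index fit gave a difference of 0.77 ± 0.11 (SE), adjusted p = 5.56e-05. Cd14, a co-receptor for bacterial lipopolysaccharide, was higher with RAS in 6 of 6 lines. Cd14 stood at 39.6, 43.7 and 14.7 CPM in S6K1 WT EV, 64.8, 101 and 19.5 CPM in WT RAS and 20.5, 30.7 and 9.72 CPM in KO RAS. For Cd14, the S6K1/S6K2 series gave 26.2, 5.04 and 6.71 CPM (WT EV), 29.3, 6.25 and 6.85 CPM (WT RAS) and 7.37, 3.8 and 3.72 CPM (DKO RAS). Its changes of 0.03 to 1.22 on the log2 scale were smallest in the S6K1/S6K2 series, and at an equal index it differed by 0.80 ± 0.18 (SE), adjusted p = 0.00186. The intracellular receptors for microbial RNA, Tlr7 and Tlr13, scaled with the index, although Tlr7 was lower relative to it in 6 of 6 lines, by values of -1.08 to -0.13. Ptprc (CD45), the phosphatase of all blood cells, and Cd84, an adhesion receptor of the SLAM family, scaled too, with slopes of 0.99 and 0.94.

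The other members that were tested covered ranges of the same kind over the 18 libraries. The membrane adaptors Tyrobp and Fcer1g ranged over 0.7 to 79.7 and 0.443 to 105 CPM, and Trem2 over 0.7 to 63.9 CPM. Cybb and Coro1a spanned 0.4 to 67.9 and 0.4 to 46.9 CPM. Aif1 was the lowest in counts, at 0 to 4.16 CPM, and had 3 counts or fewer in both libraries of 2 WT lines. Laptm5, a lysosomal membrane protein, was at 1.5 to 199 CPM, and Ms4a6c, a member of a family of similar genes whose reads may be split with some uncertainty, at 0.2 to 27.3 CPM. Ptprc and Cd84 ranged over 0.4 to 62.5 and 0.6 to 53.6 CPM, and Tlr7 and Tlr13 over 0.2 to 35.2 and 0.1 to 46.2 CPM. Each of these 12 genes was highest in a WT library of replicate 1 or 2 of the S6K1 series and lowest in a DKO RAS library.

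**Figure D3:**
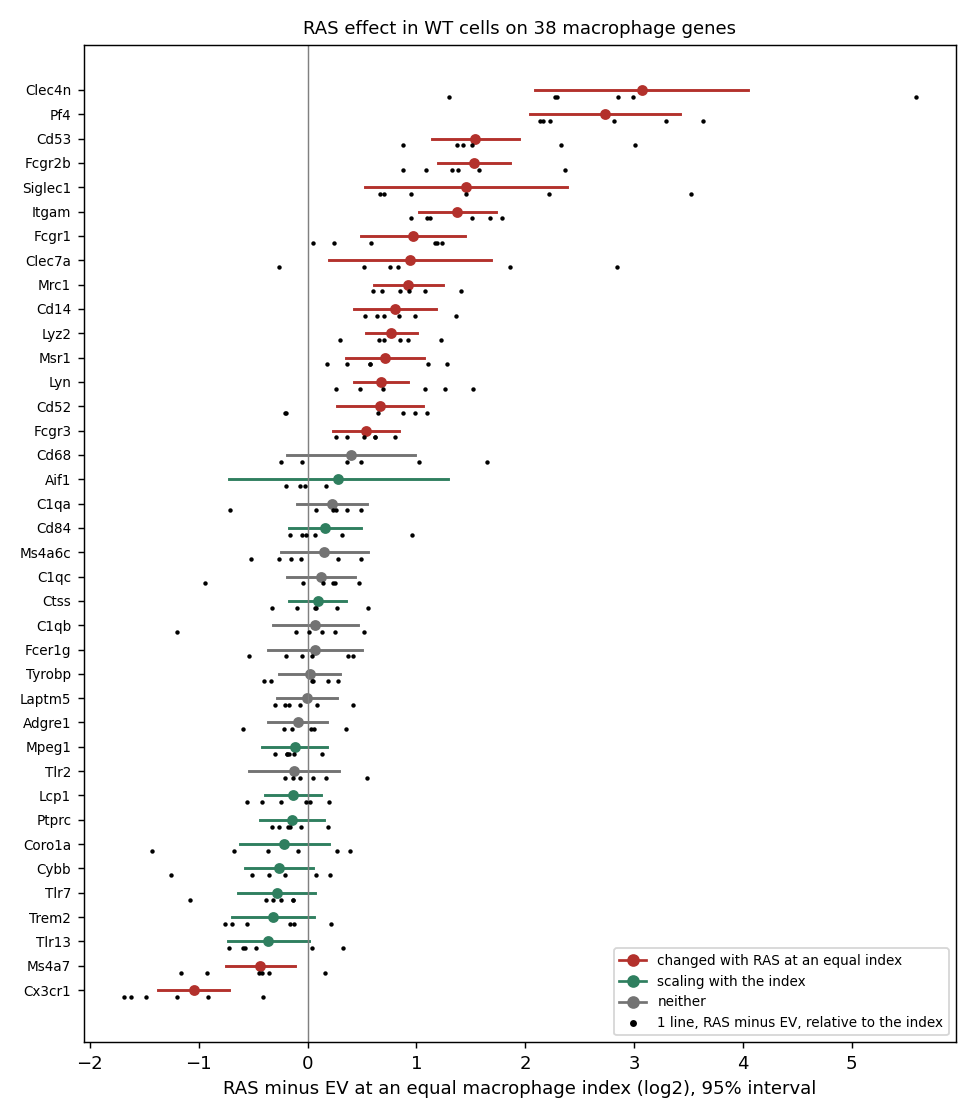
RAS minus EV in WT cells at an equal macrophage index (log2) for the 38 members tested, with 95% intervals, coloured by class. Black dots are the 6 WT lines, each as its RAS minus EV difference less that of the index, for lines with more than 3 counts in at least 1 of the 2 libraries. Clec4n and Pf4 stand at 3.07 and 2.73 at the top and Cx3cr1 at -1.05 at the bottom.

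Without the index, the RAS effect on the members depended on whether lines were compared with themselves. In the S6K1 series the median log2 difference of the 38 members tested was 0.14 without the block (all genes 0), and 25 were positive. With the line as a block, 20 of 38 were called, 14 higher and 6 lower, where 36.2% of all genes were called. In the S6K1/S6K2 series the median was -0.64 over 36 members (all genes -0.02). With the line as a block, 16 of 36 were called, 5 higher and 11 lower, where 28.7% of all genes were called. Higher in both series with the block were Pf4, Clec4n, Cd53 and Fcgr2b. Lower in both were Mpeg1, Cx3cr1, Ms4a7 and Tlr7. In the S6K1/S6K2 series the median turned positive, to 1.10, without WT EV replicate 1 and went to -2.07 without WT RAS replicate 1. In the S6K1 series it was between -0.35 and 0.61 with 1 library left out. No member was called for a difference of the RAS effect between the series without or with the replicate block (edgeR), where 0% and 0.400% of all genes were called. At an unadjusted p under 0.05 there were 0 of 38 members and 12.6% of all genes without the block, and 16 of 38 members (42.1%) and 23.9% of all genes with it. At an equal index and by series, 12 of 38 members were called in the S6K1 series (11 higher, 20.1% of all genes called) and 10 of 38 in the S6K1/S6K2 series (all higher, 34.5% of all genes called). The difference between the series at an equal index was called for 0 of 38, where 0.117% of all genes were called, with 3 members (7.89%) and 15.8% of all genes at an unadjusted p under 0.05 (edgeR).

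**Figure D4:**
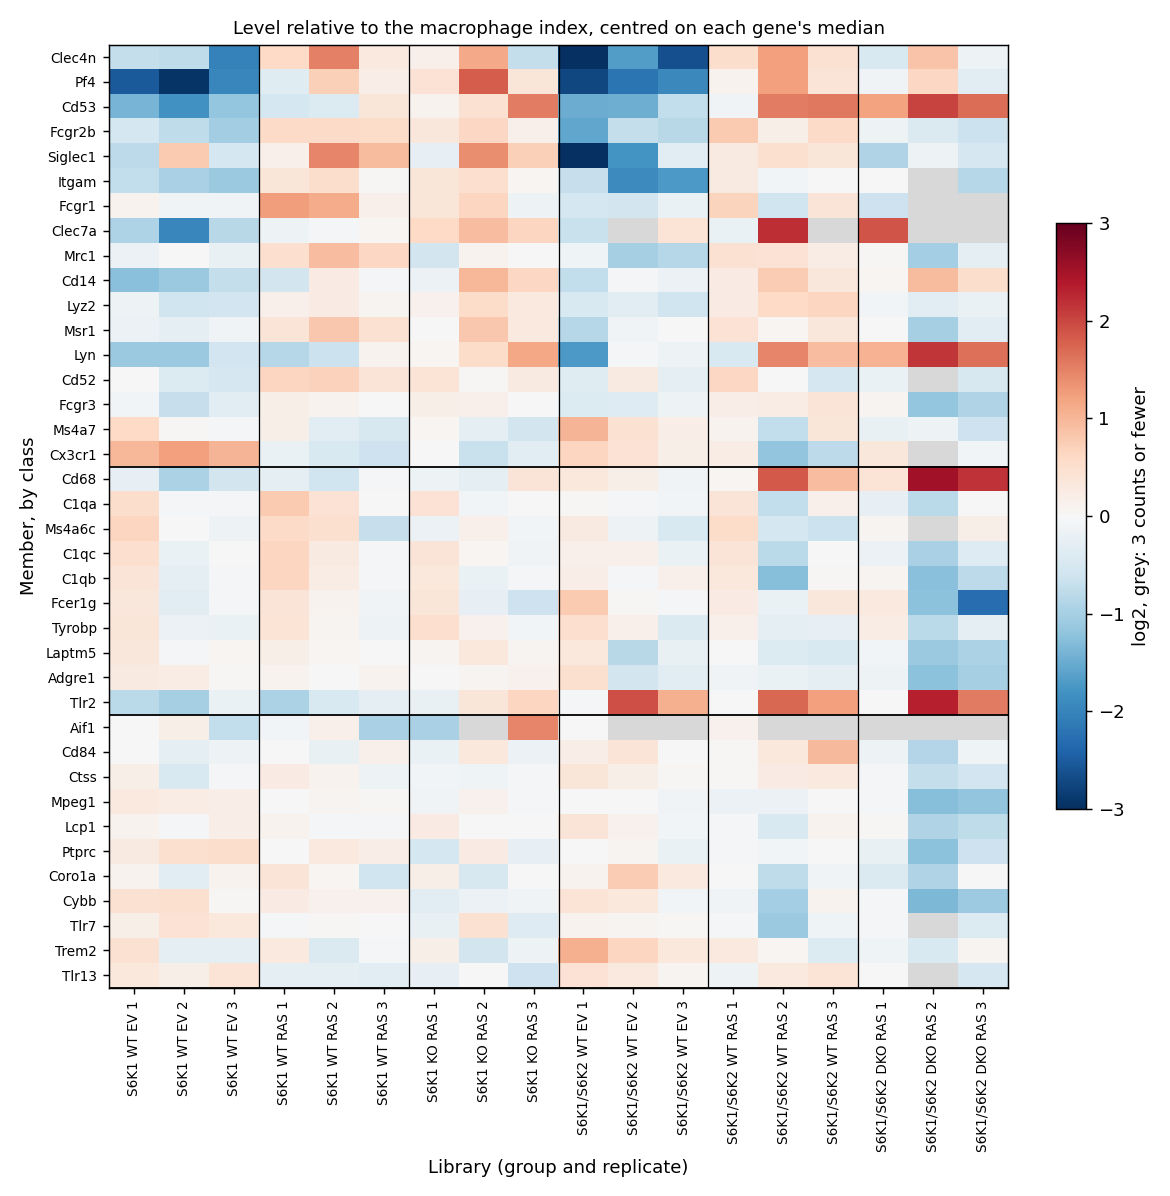
Log2 ratio of each of 38 members to the macrophage index in the 18 libraries, centred on the median of the gene, with members ordered by class (from the top: changed with RAS at an equal index, neither, scaling with the index) and grey where a library held 3 counts or fewer. Clec4n and Pf4 are low in the 6 EV libraries, Cx3cr1 is above its median in them, and Cd53, Cd68, Tlr2 and Lyn are high in the DKO RAS libraries of replicates 2 and 3.

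To ask whether loss of S6K changed these genes, KO RAS and DKO RAS were compared with the WT RAS of their series. All 38 members tested were lower in S6K1 KO RAS, with a median log2 difference of -2.17 (all genes 0.03) and a range of -3.04 (Mrc1) to -1.05 (Lyn). None passed the adjusted threshold in edgeR without the block, where 0.00712% of all genes were called. At an unadjusted p under 0.05 there were 36 members (94.7%) and 6.86% of all genes. DESeq2 called 2 members, and its share of all genes called was not recorded. With the replicate number as a block (same-numbered KO and WT libraries deviated together), 36 of 38 were called, all lower, where 4.15% of all genes were called and 3.61% were called lower. The labels do not pair KO with WT by number. This block rests on correlations of 0.672, 0.373 and 0.599 seen in the same counts, and its p-values hold only if that pairing does. Examples with the block are Mpeg1 at -2.09 ± 0.11 (SE), adjusted p = 1.07e-05, Mrc1 at -2.92 ± 0.15 (SE), adjusted p = 1.07e-05, and C1qa at -2.39 ± 0.18 (SE), adjusted p = 4.12e-05. KO and WT RAS libraries overlapped for most members, since WT RAS replicate 3 lay near KO RAS replicate 1. The groups did not overlap for Mrc1, Cd53, Ptprc, Fcgr2b, Cybb, Msr1 and Cd84. For some the gap was narrow: the lowest WT RAS and highest KO RAS values were 14.4 and 14.2 CPM for Fcgr2b. They were 53.8 and 51.3 CPM for Cd53, and 25.6 and 24.8 CPM for Msr1. The share of all genes that separate in this way was not counted, so this list is not a result about the members.

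The 36 members tested in DKO RAS were all lower than in WT RAS, with a median of -1.90 (all genes 0) and a range of -3.26 (Fcgr1) to -0.30 (Lyn). None passed the adjusted threshold in edgeR, where 0.0216% of all genes were called, and DESeq2 called none. At an unadjusted p under 0.05 there were 8 members (22.2%) and 1.29% of all genes (edgeR). Much of this rested on 1 library. Without WT RAS replicate 1 of that series, the median was -0.52. Clec4n, Pf4, Tlr2 and Siglec1 were the members whose DKO and WT RAS values did not overlap, and here too the share of all genes was not counted. No member was called for a difference of the loss effect between the series (edgeR, 0.00690% of all genes called, and at an unadjusted p under 0.05 also 0 of 38 members beside 1.23% of all genes), and series and batch cannot be told apart in that contrast.

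The index was lower together with the members in the same libraries, from 737, 664 and 159 CPM in S6K1 WT RAS to 180, 120 and 49.3 CPM in KO RAS, and from 191, 28.6 and 41.8 CPM to 54.5, 15.2 and 19.9 CPM in DKO RAS. At an equal index the median difference of the members was 0.09 for KO RAS (range -0.60 to 0.50) and -0.20 for DKO RAS (range -1.35 to 0.87). No member was called in either (edgeR), where 0.0276% and 0.0483% of all genes were called. At an unadjusted p under 0.05 there were 3 of 38 members (7.89%) and 6.85% of all genes for KO RAS, and 6 of 38 (15.8%) and 7.57% for DKO RAS. Mrc1 had the lowest value in KO RAS, -0.60 ± 0.24 (SE), and Fcgr1 in DKO RAS, -1.35 ± 0.52 (SE). C1qa differed by 0.04 ± 0.24 (SE) in KO RAS, with a 95% interval of -0.47 to 0.54, and by -2.50 without the index. The index is itself made of macrophage genes and differed by -2.06 on the log2 scale in KO RAS. A drop that C1qa shares with the index is thus taken out by construction, and the value at an equal index does not test the other. These fits were added after the data were seen, and their median SE of 0.25 and 0.29 limits the size of difference that could be shown.

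**Figure D5:**
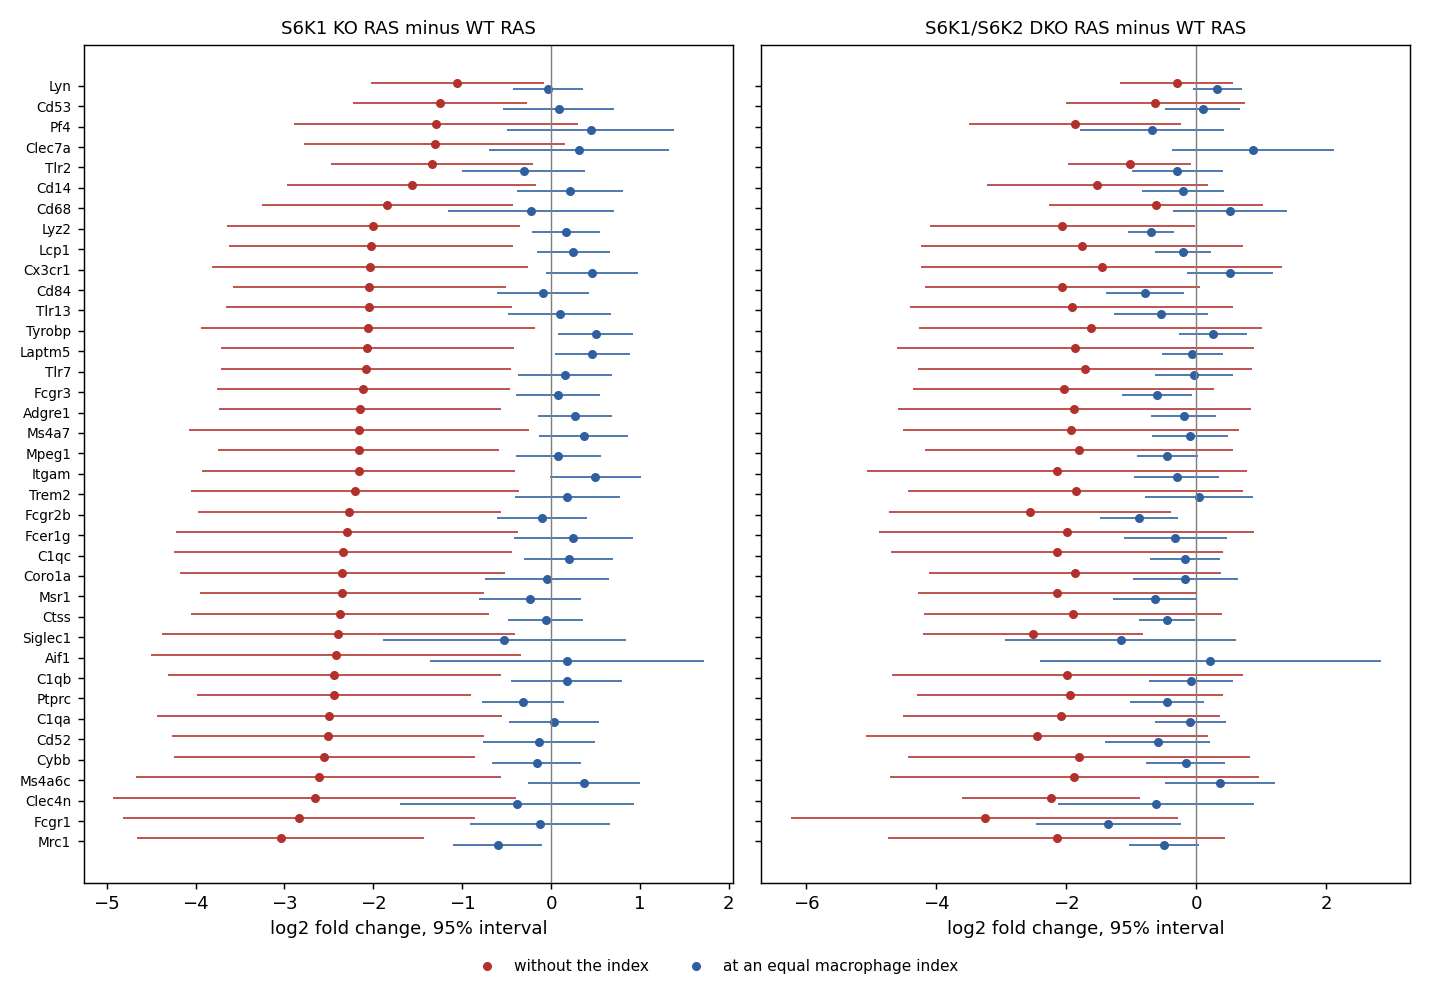
Log2 difference of KO RAS (left) and DKO RAS (right) from the WT RAS of the same series for each member, with 95% intervals, without the index (red) and at an equal macrophage index (blue). Red points have medians of -2.17 and -1.90 and blue points medians of 0.09 and -0.20.

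Signals that act on macrophages were compared in the same libraries. Of 12 such ligands, 7 were tested. Ccl2, a chemokine that attracts monocytes (picked out once its values had been seen), rose with RAS in both series, by 2.21 ± 0.60 (SE), adjusted p = 0.0397, and 1.96 ± 0.32 (SE), adjusted p = 0.0025, on the log2 scale (edgeR). Ccl2 was the only ligand called in the S6K1 series, and 3 were called in the S6K1/S6K2 series, all higher. Csf1, the growth factor of the lineage, was not called in either (0.45 ± 0.25 and -0.17 ± 0.20, SE, adjusted p = 0.307 and 0.553), although with the line as a block it was in the S6K1 series (0.42 ± 0.11, SE, adjusted p = 0.0158). No ligand was called in KO RAS or DKO RAS against WT RAS without the block. The part of these ligands in the levels of the members was not tested.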

How the data were processed

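RNA-seq of total RNA from 18 MEF cultures was analysed. The authors deposited raw gene counts in 1 table. The submitters' processing notes name CASAVA, STAR 2.7.1a, DESeq2 1.28.1 and mm10, whereas the published methods name another aligner and an earlier mouse build, so which made the counts is not settled and no coordinate was taken from them. Gene symbols and promoters came from RefSeq (GRCm38.p6), and 32589 of 55401 identifiers (99.14% of counts) had a symbol.

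The members, lists and tests were chosen with earlier results of these data known. Genes were filtered with filterByExpr (minimum count 10), scaled by TMM and tested with edgeR 4.0.16 (quasi-likelihood, R 4.3.3) within each series, with Benjamini-Hochberg adjustment over all genes tested and a threshold of 0.05. The index fit used all 18 libraries, and a line's log2 change used a pseudocount of 0.5 counts. Values per library are given for a set of leading members (the C1q chains, Mpeg1, Lyz2, Adgre1, Cd68, Mrc1, Cd14, Tlr2 and Lyn), for each member called in any comparison without the block or for RAS at an equal index, and for the 3 members with the smallest SD of their ratio to the index. A member was said to scale with the index when it was not called for RAS and the 95% interval of its slope held 1. Alternatives were DESeq2, its size factors, no filter, the replicate block, each library left out and other forms of the index. The edgeR steps were tested on simulated counts drawn separately for each library. This does not show how the fits behave when EV and RAS libraries share a line.

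EV and RAS libraries with 1 number share a WT line per the labels. Whether same-numbered KO and WT libraries share a mother is not given in the sources used here. Deviations of same-numbered libraries from the group means correlated at 0.422 to 0.655, 0.301 to 0.381 and 0.373 to 0.672 in RAS against EV of the S6K1 series, of the S6K1/S6K2 series, and in KO against WT. The 3 libraries of a group come from separate lines, so p-values of the comparisons within a series without the block measure the spread between lines. With the block, p-values measure the spread left once differences between lines or replicate numbers are taken out. In the index fit over 18 libraries they measure the scatter left around the group and index terms. That fit treats EV and RAS of a line as separate. Library pairs within groups differed by more than counting noise (chi-square per degree of freedom at least 7.98).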

Additional observations from a re-analysis of the deposited data

How the results depend on the processing

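The counts of members called in the comparisons within a series depended on how the lines were handled. The share of all genes called was not recorded for DESeq2, for fits without the filter or for fits that left out a library. For RAS in the S6K1 series, 1 call became 2 without the filter, 20 with the replicate block, 12 at an equal index (an alternative added after the data were seen) and 0 to 2 with 1 library left out, and the median went from -0.35 to 0.61. For RAS in the S6K1/S6K2 series, 1 call became 2 with DESeq2, 5 without the filter, 16 with the block, 10 at an equal index and 1 to 4 with 1 library left out. The median there ran from -2.07 to 1.10 with 1 library left out and was 0.18 at an equal index, Cx3cr1 ran from -3.51 to 0.50 and Fcgr2b from -0.29 to 2.28. For S6K1 KO, 0 calls became 2 with DESeq2, 8 without the filter and 36 with the block, whose pairing was read from the same counts. Its median ran from -2.63 to -1.79 with 1 library left out and was 0.09 at an equal index, where Lyz2 (0.17), Mpeg1 (0.08), C1qa (0.04), C1qb (0.18), C1qc (0.20), Cd53 (0.08) and Pf4 (0.45) turned positive. For DKO, 0 calls became 4 with the block, where 0.0576% of all genes were called, but the numbers did not pair the samples there (correlations of 0.287, 0.424 and -0.029). Its median ran from -2.94 to -0.52 and was -0.20 at an equal index, where Cd68 (0.52), Cd53 (0.10) and Lyn (0.32) turned positive, and Lyn ran from -0.60 to 0.03 with 1 library left out.

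The 17 calls for RAS at an equal index became 2 with the slope fixed at 1 and no block, and 10 without lines WT1 and WT2 of the S6K1 series. For neither fit was the share of all genes called recorded. With the 12 WT libraries and the replicate block both the RAS term and the slope had 0 calls in edgeR, with 6 and 9 members at an unadjusted p under 0.05 (15.8% and 23.7%, beside 15.4% and 9.54% of all genes). In that fit the RAS term was -0.18 for Msr1, -0.15 for Siglec1 and -0.53 for Cd52. The slope there was -0.03 for C1qa, -0.30 for C1qb, -0.05 for C1qc, -2.12 for Fcgr2b, -5.73 for Clec4n, -1.38 for Msr1, -0.35 for Pf4, -3.55 for Siglec1 and -1.97 for Cd52. The index moves little inside a line, which limits that fit by its construction. Otherwise the cause was not tested. With 3 libraries a group and a spread between lines of over 1 log2 unit, smaller differences could not be shown without pairing, and genes such as Clec7a and Aif1 rest on few counts.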
